A study of Drosophila melanogaster with 4 samples.

Results

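The Cpr genes encode cuticle proteins of *Drosophila*, and 58 of the 10844 genes with a probe set of their own on the array were Cpr genes. They were taken as every probe set whose only gene name in the probe annotation is Cpr followed by a number, and a gene with more than 1 such probe set was represented by the brighter one (60 probe sets in all). RNA of whole early (pale) pupae was hybridized to 4 Affymetrix DrosGenome1 arrays, 2 of Dop1R2 RNAi and 2 of control, and each array held a separate pool of 10 to 20 pupae. Dop1R2 RNAi pupae (UAS-dsDop1R2/+;Act5C-Gal4/+) expressed a hairpin against the dopamine receptor Dop1R2 from the ubiquitous Act5C driver. Control pupae (w1118;Act5C-Gal4/+) carried the driver without the hairpin, and both groups were kept at 29 °C, a temperature at which GAL4 drivers are more active than in the cold. A figure legend of the study instead gives controls that carry the hairpin and the TM6B balancer without the driver, and which of its hairpin lines was used for the arrays is not given in the sources used here. No probe set carries the name Dop1R2 alone, so the knockdown itself was not checked on these arrays.

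Cpr proteins carry the Rebers and Riddiford consensus, a stretch that binds chitin, and together with chitin fibres they form the layers of the insect cuticle. At the onset of metamorphosis the larval cuticle hardens into the puparium, and the epidermis then lays down a pupal cuticle and later the adult one. Pulses of the steroid hormone ecdysone time these steps, and different cuticle protein genes are transcribed at each. The name of a Cpr gene gives its position on the polytene chromosome map, so that Cpr72Ea, Cpr72Eb and Cpr72Ec are neighbours at 72E. By that position 39 of the 58 genes fell into 11 clusters of at least 2, and 19 stood alone. For most single Cpr genes no role beyond that of a cuticle protein is stated here.

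Of the 58 genes, 44 were bright enough to be tested, with signals that reached the 40th percentile on at least 2 of 4 arrays, and 14 were not. Signals are linear MAS5 intensities, and differences were tested on the log2 scale with limma, with p adjusted by the Benjamini-Hochberg method over all 8749 tested probe sets. A high signal places a probe set within its own array and does not rank transcripts against each other, since probes differ in brightness. Over the tested Cpr genes the arrays were not alike. Dop1R2 RNAi replicate 2 gave the lowest of the 4 signals for 29 of 44 Cpr genes (65.9%), against 28.8% of all tested probe sets. The median absolute difference between the 2 Dop1R2 RNAi arrays was 0.76 on the log2 scale over the Cpr genes and 0.28 over all tested probe sets, whereas that between the 2 control arrays was 0.32 and 0.30. Results that rest on Dop1R2 RNAi replicate 2 are therefore also given without it.

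A few Cpr genes were much higher in Dop1R2 RNAi pupae, while many others had their lowest signal on Dop1R2 RNAi replicate 2. At adjusted p under 0.05, 3 of 44 Cpr genes (6.82%) rose, against 1.38% of all tested probe sets, and none of 44 fell, against 0.103%. These genes were Cpr65Ec, Cpr72Eb and Cpr49Ac. Of these, Cpr65Ec was bright enough to be tested on the Dop1R2 RNAi arrays alone, where it was high, and it counts toward this share. Without the filter on signal the same 3 genes passed, of 58 Cpr genes, against 75 of all 13966 probe sets. The study names all 3 genes from the same arrays, so their rise here is not independent evidence. For Cpr72Eb it also reports a rise by RT-PCR in separate biological replicates. At an unadjusted p under 0.05, 6 Cpr genes were higher (7.53% of all tested probe sets) and 0 were lower (5.51%). The methods' t-test at that unadjusted level called 4 Cpr genes higher (5.34% of all tested probe sets) and 1, Cpr5C, lower (3.69%). Both Dop1R2 RNAi arrays lay above both controls for 10 of 44 Cpr genes, or 22.7%, close to the 21.1% of all tested probe sets. They lay below both controls for 6, or 13.6%, against 24.0%.

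Cpr65Ec had signals of 137 and 365 in Dop1R2 RNAi pupae, against 18.3 and 14.6 in control pupae. Both Dop1R2 RNAi arrays were far above both controls, with replicate 2 the higher, and the controls lay close together near the 29.5th and 24.6th percentiles of their arrays. The gene rose 13.7-fold (log2 fold change 3.78, standard error 0.46, limma adjusted p = 0.0117). In whole pupae, more cells that express a gene and more RNA per cell cannot be told apart.

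Cpr72Eb had signals of 560 and 1391 in Dop1R2 RNAi pupae, against 79.3 and 65.8 in control pupae. The groups did not overlap, and again Dop1R2 RNAi replicate 2 was the highest array. The gene rose 12.2-fold (log2 fold change 3.61, standard error 0.42, limma adjusted p = 0.0104).

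Cpr49Ac had signals of 882 and 1184 in Dop1R2 RNAi pupae, against 350 and 338 in control pupae. Its arrays agreed more closely within each group than those of Cpr65Ec and Cpr72Eb. The gene rose 2.97-fold (log2 fold change 1.57, standard error 0.23, limma adjusted p = 0.0247).

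Each of the 3 rises was present on either Dop1R2 RNAi array alone. Against the mean of the controls on the log2 scale, Cpr65Ec stood at 3.07 on replicate 1 and 4.48 on replicate 2, Cpr72Eb at 2.95 and 4.27, and Cpr49Ac at 1.36 and 1.78. The calls nevertheless needed both control arrays. Without control replicate 1 the limma adjusted p was 0.133 for Cpr65Ec, 0.133 for Cpr72Eb and 0.255 for Cpr49Ac, and without control replicate 2 it was 0.117, 0.119 and 0.176, while the log2 fold changes stayed between 1.55 and 3.94. Cpr49Ac also missed the threshold in a fit without a trend (0.0692). A lone control array is assumed to vary like the 2 Dop1R2 RNAi arrays. For a single gene, the smallest two-sided p of an exact permutation test over these 4 arrays is 0.333, and every p measures only the spread between these pools.

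Cpr47Eb had signals of 52.9 and 70.3 in Dop1R2 RNAi pupae, against 4.96 and 8.74 in control pupae. Both control signals lay under the 20th percentile of the array, which leaves their level unmeasured, and against signals raised to that percentile the gene was at least 5.74-fold higher. It did not pass (log2 fold change 3.21, standard error 0.61, limma adjusted p = 0.0704). It did with the 20th percentile as a floor (adjusted p = 0.0403), with 32 added to each signal (0.0246) and in a fit without a trend (0.0226). Like Cpr65Ec, Cpr47Eb was tested through the Dop1R2 RNAi arrays alone.

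Cpr100A was the next gene by p, with signals of 2091 and 3313 in Dop1R2 RNAi pupae, against 1578 and 1516 in control pupae. The groups did not overlap, but the difference did not pass (log2 fold change 0.77, standard error 0.24, limma adjusted p = 0.265). Differences of like size did not pass for Cpr47Ec (0.83, adjusted p = 0.344) and Cpr78E (0.77, adjusted p = 0.402).

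**Figure D1:**
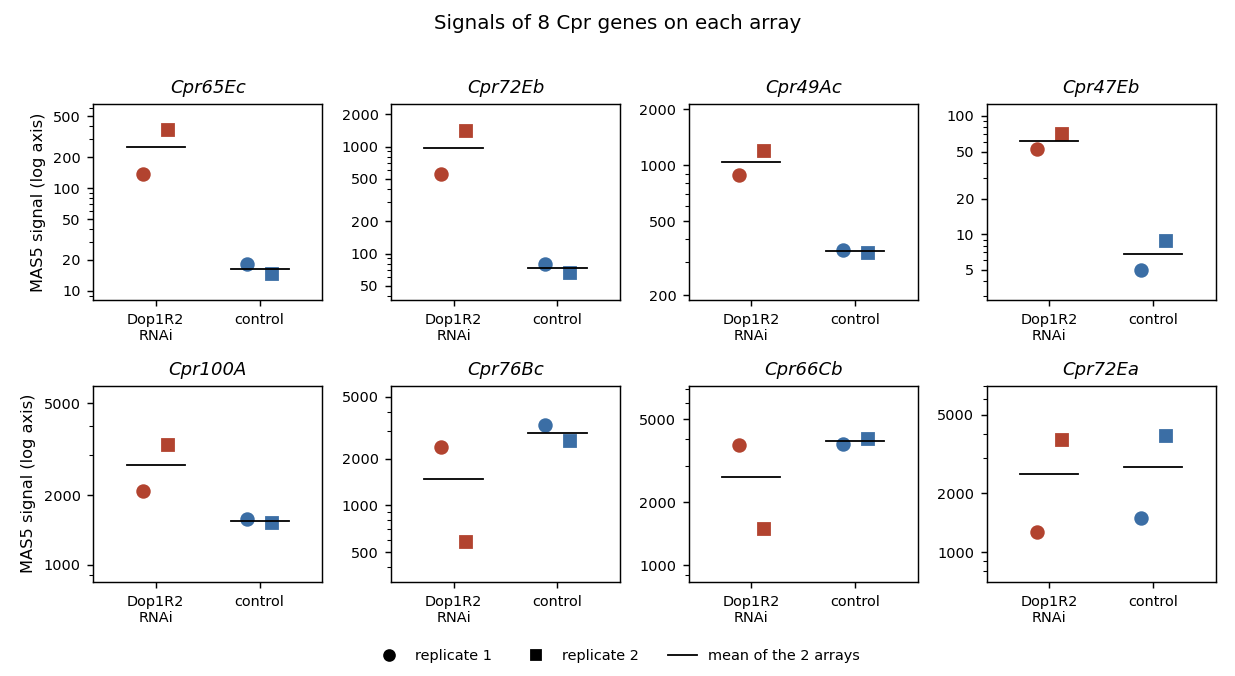
Signals of 8 Cpr genes on each array, with Dop1R2 RNAi left of control, circles for replicate 1, squares for replicate 2 and a bar for the mean of the 2 arrays; each panel has its own log axis of MAS5 signal. Cpr65Ec, Cpr72Eb, Cpr49Ac, Cpr47Eb and Cpr100A have both Dop1R2 RNAi arrays above both controls, Cpr76Bc and Cpr66Cb have Dop1R2 RNAi replicate 2 alone far below, and in Cpr72Ea replicate 2 is the higher in both groups.

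No neighbour of these genes passed. In the reference annotation no protein-coding gene lies between Cpr72Ea, Cpr72Eb and Cpr72Ec, yet the log2 fold change of Cpr72Eb (3.61) stood beside -0.16 for Cpr72Ea and -0.29 for Cpr72Ec, whose adjusted p were 0.936 and 0.75. Cpr72Ec, a protein of the corneal lens, had 1464 and 753 in Dop1R2 RNAi pupae, against 1523 and 1085 in control pupae, so its groups overlapped.

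At 65E, where the genes are likewise adjacent, only Cpr65Ec was bright enough to be tested. Cpr65Ea had 6.41 and 12.5 in Dop1R2 RNAi pupae, against 12.4 and 8.28 in control pupae. Cpr65Eb had 6.97 and 4.71 in Dop1R2 RNAi pupae, against 15.5 and 5.92 in control pupae. Signals of this size lie in the dimmest part of each array, and the groups overlapped for both genes.

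At 47E, 6 of 7 genes were tested and the 5 other than Cpr47Eb had log2 fold changes between -0.40 and 0.83, none of which passed. The member with the strongest signal there, Cpr47Ea, had 629 and 438 in Dop1R2 RNAi pupae, against 641 and 537 in control pupae (log2 fold change -0.16, adjusted p = 0.829). At 49A, 3 of 6 genes were tested. Besides Cpr49Ac these were Cpr49Ae (log2 fold change -0.29, adjusted p = 0.769) and Cpr49Ah. Cpr49Ah had 1435 and 859 in Dop1R2 RNAi pupae, against 1210 and 1186 in control pupae, so that the Dop1R2 RNAi arrays lay on either side of the controls (log2 fold change -0.11, adjusted p = 0.897).

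Other clusters held no gene that passed. The median log2 fold change was -0.06 at 64A (4 of 4 tested), 0.27 at 78C (3 of 3), -0.48 at 76B (4 of 4), -0.52 at 62B (2 of 3), -0.25 at 50C (2 of 2) and -0.03 at 97E (2 of 2), and both genes at 67F were too dim to test. Without Dop1R2 RNAi replicate 2 these medians were 0.26 at 64A, 0.44 at 78C, -0.09 at 76B, -0.04 at 62B, 0.10 at 50C and 0.26 at 97E. At 64A the values ran on both sides of 0. Cpr64Ac had 2455 and 1872 in Dop1R2 RNAi pupae, against 2896 and 2332 in control pupae (log2 fold change -0.28, adjusted p = 0.604), and Cpr64Ad had 487 and 458 in Dop1R2 RNAi pupae, against 377 and 328 in control pupae (0.43, adjusted p = 0.447). At 78C the largest difference was that of Cpr78Cc, with 140 and 117 in Dop1R2 RNAi pupae, against 234 and 144 in control pupae (-0.53, adjusted p = 0.488). These groups did not overlap for Cpr64Ad and Cpr78Cc, and they did for Cpr64Ac.

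**Figure D2:**
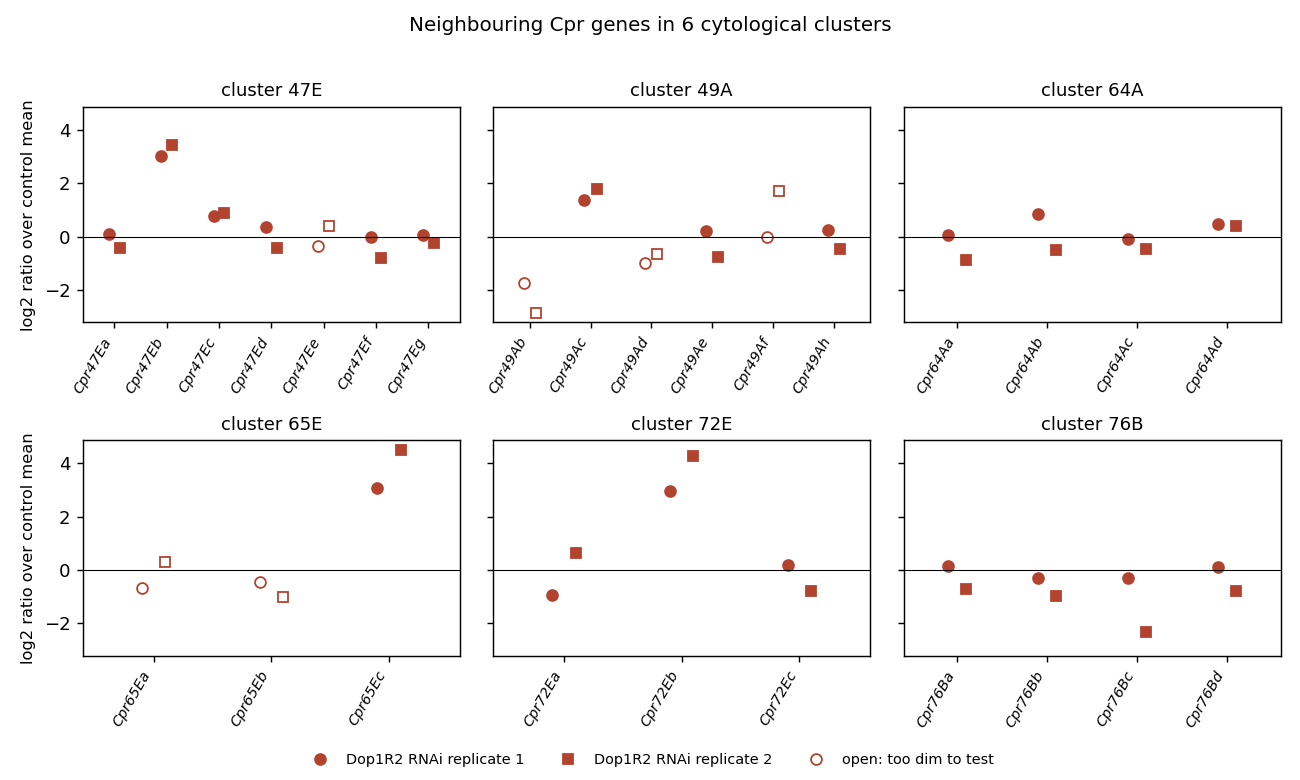
Log2 ratio of each Dop1R2 RNAi array (circles, replicate 1; squares, replicate 2) over the mean of the 2 controls for the genes of 6 cytological clusters, in the order of their names; open symbols mark genes too dim to test. Cpr47Eb, Cpr49Ac, Cpr65Ec and Cpr72Eb have the highest ratios of their clusters on both arrays, and all 4 genes at 76B have replicate 2 below replicate 1.

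Over the 44 tested Cpr genes the median log2 fold change was -0.16, against -0.04 over all tested probe sets, and 29 of 44 values were negative. Apart from Cpr65Ec, Cpr72Eb, Cpr47Eb, Cpr49Ac, Cpr47Ec, Cpr78E and Cpr100A, log2 fold changes ran from -1.32 to 0.47. In all, 5 of 44 Cpr genes (11.4%) differed by at least 1 on the log2 scale, against 7.25% of all tested probe sets. The only one of these 5 on the lower side was Cpr76Bc.

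**Figure D3:**
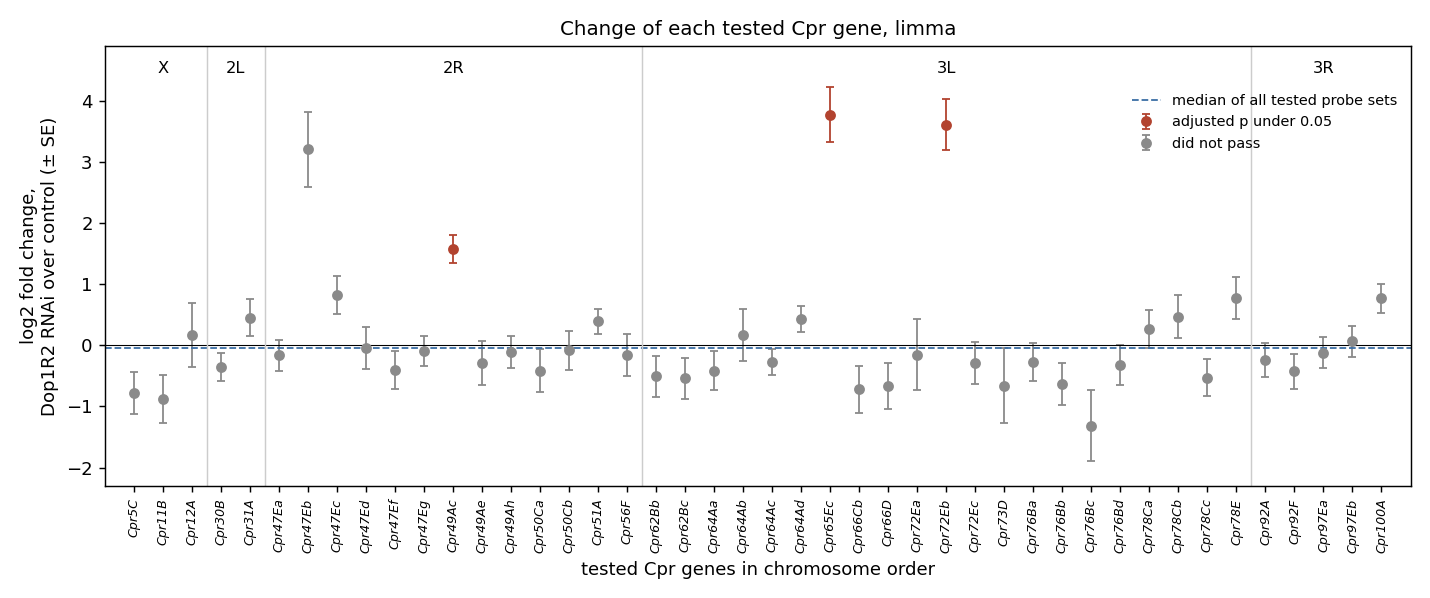
Log2 fold change of each of the 44 tested Cpr genes (Dop1R2 RNAi over control, limma, bars of 1 standard error), in chromosome order with the chromosome arm above; red marks an adjusted p under 0.05 and the dashed line is the median of all tested probe sets (-0.04). Cpr65Ec, Cpr72Eb and Cpr49Ac are red, Cpr47Eb is high but did not pass, and most other genes lie a little below 0.

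The median was negative on Dop1R2 RNAi replicate 2 alone. Against the mean of the controls, the median over the 44 Cpr genes was 0.12 on replicate 1 (17 of 44 negative) and -0.48 on replicate 2 (29 of 44 negative), whereas over all tested probe sets it was -0.02 and -0.03. The pattern was most frequent among Cpr genes with strong signals. Among the 26 Cpr genes whose mean log2 signal was in the brightest 10% of the array, 21 (80.8%) were lowest on Dop1R2 RNAi replicate 2, against 38.7% of the 1397 tested probe sets of that brightness. Their median log2 ratio was 0.12 on replicate 1 and -0.61 on replicate 2. For the other 18 Cpr genes 8 were lowest on that array.

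Cpr76Bc showed it most strongly, with signals of 2374 and 577 in Dop1R2 RNAi pupae, against 3286 and 2593 in control pupae. Replicate 1 lay just under the controls and replicate 2 was 4.11-fold below replicate 1, a gap larger than that between the groups. The difference did not pass (log2 fold change -1.32, standard error 0.58, limma adjusted p = 0.392). Its neighbours Cpr76Ba, Cpr76Bb and Cpr76Bd were also lowest on replicate 2, with log2 fold changes of -0.27, -0.63 and -0.32 that did not pass.

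Cpr66Cb had 3774 and 1497 in Dop1R2 RNAi pupae, against 3824 and 4022 in control pupae. Cpr62Bc had 3721 and 1791 in Dop1R2 RNAi pupae, against 4199 and 3347 in control pupae. In both, replicate 1 was close to the controls and replicate 2 was 2.52-fold (Cpr66Cb) or 2.08-fold (Cpr62Bc) below replicate 1, and neither passed (log2 fold changes -0.72 and -0.54, adjusted p = 0.477 and 0.528). Cpr30B had 2737 and 1913 in Dop1R2 RNAi pupae, against 3298 and 2587 in control pupae (log2 fold change -0.35, adjusted p = 0.552), with overlapping groups. Cpr66D, another protein of the corneal lens, had 2597 and 1064 in Dop1R2 RNAi pupae, against 2666 and 2604 in control pupae. A further probe set of Cpr66D read 2247 and 952 in Dop1R2 RNAi pupae, against 2185 and 2462 in control pupae, so both probe sets were low on the same array (log2 fold change -0.67 and adjusted p of 0.499 and 0.49).

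Leaving out a Dop1R2 RNAi array showed how far the lower side depended on replicate 2. Without Dop1R2 RNAi replicate 1, 9 of 44 Cpr genes were lower (3.37% of all tested probe sets) and 6 were higher (4.08%). The 9 were Cpr11B, Cpr62Bc, Cpr64Aa, Cpr66Cb, Cpr66D, Cpr72Ec, Cpr76Bb, Cpr76Bc and Cpr92F, with log2 fold changes between -2.34 (Cpr76Bc) and -0.77 (Cpr72Ec). The 6 were the 3 genes that rose with all arrays and Cpr72Ea, Cpr78E and Cpr100A. Without Dop1R2 RNAi replicate 2, the same 3 Cpr genes were higher (1.92% of all tested probe sets), 1 was lower (1.30%), namely Cpr72Ea, and Cpr76Bc stood at -0.30. In both fits the lone array is assumed to vary like the 2 controls, which differed less for these genes than the 2 Dop1R2 RNAi arrays did, so p leaves out the larger spread.

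**Figure D4:**
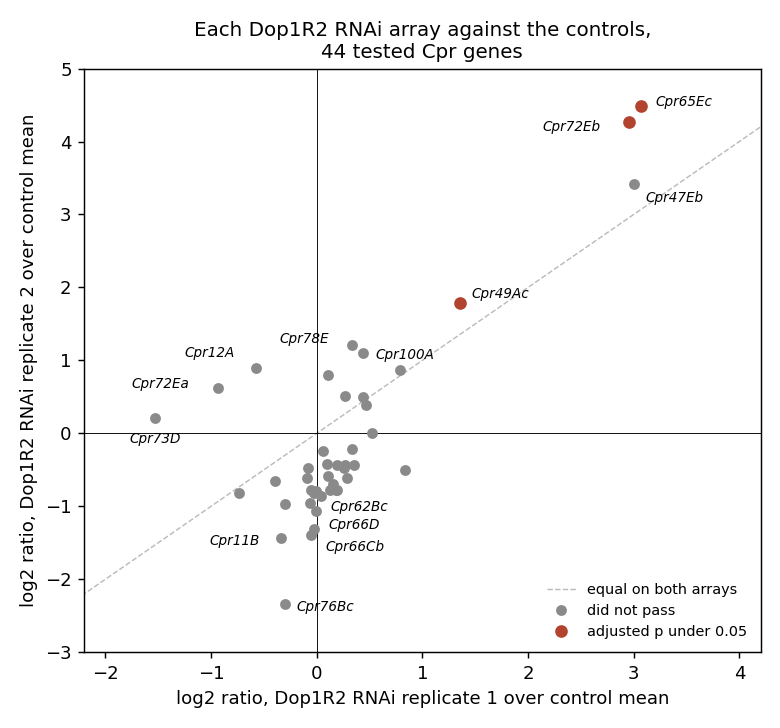
Log2 ratio over the mean of the 2 controls on Dop1R2 RNAi replicate 1 (horizontal) and replicate 2 (vertical) for the 44 tested Cpr genes; the dashed line marks equal ratios, and red marks an adjusted p under 0.05. Cpr65Ec, Cpr72Eb, Cpr49Ac and Cpr47Eb are high on both arrays, while most genes lie near 0 on replicate 1 and below 0 on replicate 2.

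Some other transcripts were also low on Dop1R2 RNAi replicate 2. Over all tested probe sets that array did not stand out, with 28.8% lowest on it and 31.6% lowest on control replicate 1. Of those in the brightest 10%, 38.7% were lowest on Dop1R2 RNAi replicate 2 and 26.7% on control replicate 1. Of the muscle genes listed, 7 of 8 tested were lowest on Dop1R2 RNAi replicate 2. Together the muscle genes gave 14280 and 9273 in Dop1R2 RNAi pupae, against 14210 and 11690 in control pupae. The 8 neuronal genes on the array summed to 630 and 419 in Dop1R2 RNAi pupae, against 622 and 605 in control pupae. Of these sums nrv3 alone gave 323 and 168 in Dop1R2 RNAi pupae, against 320.5 and 275 in control pupae. Of 5 tested neuronal genes, 4 were lowest on Dop1R2 RNAi replicate 2. Among these, fne differed little, with 184 and 158 in Dop1R2 RNAi pupae, against 165 and 176 in control pupae. The fat body genes summed to 20060 and 20700 in Dop1R2 RNAi pupae, against 20320 and 21070 in control pupae, and 1 of 4 was lowest there. Of 7 salivary glue genes, which mark late larvae, 1 was bright enough to be tested, with 0 called. The part of muscle and neuronal tissue in the low Cpr signals was not tested. For the actin control probes the 3' to 5' ratio was 2.07 on replicate 1 and 1.61 on replicate 2 in both groups. On Dop1R2 RNAi replicate 2 it was 3.90 for Gapdh, against 3.88 to 4.61 on the others. For eIF-4a it was 2.82 on that array, against 3.98 to 4.59.

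Cpr72Ea followed the replicate number rather than the group. It had signals of 1268 and 3738 in Dop1R2 RNAi pupae, against 1500 and 3919 in control pupae. Replicate 2 was 2.95-fold above replicate 1 in Dop1R2 RNAi pupae, against 2.61-fold above it in control pupae, and within each replicate the 2 groups lay close together. On the log2 scale its difference of -0.16 (adjusted p = 0.936) became 0.63 without Dop1R2 RNAi replicate 1 (adjusted p = 0.0364) and -0.94 without Dop1R2 RNAi replicate 2 (adjusted p = 0.0025). Cpr12A had a like pattern, with 89.0 and 247 in Dop1R2 RNAi pupae, against 93.4 and 187 in control pupae. The difference between replicates had the same sign in both groups for 36 of the 44 Cpr genes, against 4894 of all 8749 tested probe sets. Over the Cpr genes the median log2 difference, replicate 2 minus replicate 1, was -0.588 in Dop1R2 RNAi pupae and -0.205 in control pupae. Both medians are opposite in sign to Cpr72Ea and Cpr12A, and over all tested probe sets they were 0.048 and 0.063. The correlation of replicate differences between the groups was 0.516 across the Cpr genes, against 0.151 across all tested probe sets. Genes are not independent replicates, and whether arrays of the same number shared a batch is not given in the sources used here.

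The 14 Cpr genes that were not tested had signals between 0.177 and 68.1, and 3 of them (Cpr49Af, Cpr62Ba and Cpr67Fa2) lay under the 20th percentile on every array. Cpr35B read 26.9 and 23.7 in Dop1R2 RNAi pupae, against 2.81 and 11.3 in control pupae, and Cpr49Ab read 12.9 and 5.94 in Dop1R2 RNAi pupae, against 68.1 and 26.8 in control pupae. For these 2 genes the groups did not overlap, with the Dop1R2 RNAi arrays above the controls for Cpr35B and under them for Cpr49Ab. Signals under the 20th percentile have no order, which leaves the groups unordered for Cpr62Ba, with 2.52 and 2.66 in Dop1R2 RNAi pupae, against 4.80 and 4.03 in control pupae. Cpr67B read 22.8 and 10.5 in Dop1R2 RNAi pupae, against 8.72 and 6.57 in control pupae, and only the first of these signals was above that percentile. None of these dim genes was put to a test. A further 12 Cpr genes of the reference annotation have no probe set of their own and were not analysed here.

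Other genes that build the cuticle or control its formation were set beside the Cpr genes. Across 6 lists (cuticle proteins with the same consensus, prepupal and pupal cuticle, other cuticle protein families, chitin, tanning and ecdysone-controlled regulators), which share some genes, 4 of 70 tested genes rose and 0 fell (limma adjusted p; 1.38% and 0.103% of all tested probe sets). As for the Cpr genes, calls depended on the control arrays. Without control replicate 1 the adjusted p was 0.291 for Pcp, 0.195 for Edg91 and 0.198 for TwdlM, and without control replicate 2 it was 0.186, 0.141 and 0.186. The fourth gene, ple, passed without control replicate 1 (0.0355) and not without control replicate 2 (0.0589). Among 11 tested cuticle proteins with the same chitin-binding consensus but other names, 1 rose, and the median log2 fold change was 1.22. This was Pcp, a pupal cuticle protein, with 238 and 418 in Dop1R2 RNAi pupae, against 89.9 and 83.0 in control pupae (log2 fold change 1.87, adjusted p = 0.0407). Of the larval cuticle list 2 genes could be tested, Lcp65Ac and Lcp65Ad, with log2 fold changes of 0.29 and 1.22 that did not pass. Lcp65Aa, larval by name but outside that list, had 86.0 and 58.6 in Dop1R2 RNAi pupae, against 95.9 and 118 in control pupae. Its log2 fold change of -0.58 did not pass either (limma adjusted p = 0.429).

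All 4 genes of prepupal and pupal cuticle had positive log2 fold changes, and 2 of them passed. Edg91, transcribed in response to ecdysone in prepupae, had 178 and 290 in Dop1R2 RNAi pupae, against 56.5 and 51.7 in control pupae (log2 fold change 2.07, adjusted p = 0.0226), and Pcp was the other. For Edg91 the study also reports a rise by RT-PCR in separate biological replicates. Edg78E (1.98, adjusted p = 0.067) and Edg84A (1.56, adjusted p = 0.241) did not pass. In all 4, Dop1R2 RNAi replicate 2 was the highest array. The same held for Cpr65Ec, Cpr72Eb, Cpr49Ac, Cpr47Eb, Cpr47Ec, Cpr78E and Cpr100A.

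Of 11 tested cuticle proteins of other families, 2 rose. One was Edg91 and the other TwdlM of the Tweedle family, with 646 and 716 in Dop1R2 RNAi pupae, against 280 and 223 in control pupae (log2 fold change 1.44, adjusted p = 0.0355). The median of this list was -0.09, and 7 of its 11 genes were lowest on Dop1R2 RNAi replicate 2. TwdlV, for one, had 114 and 30.9 in Dop1R2 RNAi pupae, against 138 and 134 in control pupae (log2 fold change -1.195, limma adjusted p = 0.415). In contrast, Twdlbeta had 148 and 116 in Dop1R2 RNAi pupae, against 51.7 and 73.2 in control pupae (1.09, limma adjusted p = 0.171). Its groups did not overlap, but the difference did not pass.

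None of 25 tested genes of chitin synthesis and the chitin matrix passed, and their median log2 fold change was 0.12. Values were positive for 14 of them and negative for 11. The largest changes were -1.40 for exp (adjusted p = 0.46) and -0.68 for Cht10 (adjusted p = 0.348). For exp, the signal on Dop1R2 RNAi replicate 2 lay under the 20th percentile. The chitin deacetylases serp and verm, with 0.66 (adjusted p = 0.177) and 0.54 (adjusted p = 0.255), did not pass. Of 12 tested genes of cuticle tanning 1 rose. This was ple, the tyrosine hydroxylase that opens the path to dopamine and to the tanning agents made from it, with 251 and 317 in Dop1R2 RNAi pupae, against 46.9 and 26.6 in control pupae (7.98-fold, adjusted p = 0.00732). The study also reports a rise of ple by quantitative PCR. The median of the tanning list was -0.07, with 6 values positive and 6 negative. After ple the largest changes were -0.98 for y (adjusted p = 0.399), -0.92 for yellow-f (0.226) and 0.90 for Ddc (0.376). None of 11 tested ecdysone-controlled regulators passed. Their median log2 fold change was -0.48, with 5 values positive and 6 negative. The largest change was that of kni, with 9.66 and 28.5 in Dop1R2 RNAi pupae, against 36.4 and 46.3 in control pupae (log2 fold change -1.31, adjusted p = 0.415). For kni, the signal on Dop1R2 RNAi replicate 1 lay under the 20th percentile, so the size of this change is not well measured. The nuclear receptor ftz-f1, which activates Edg84A in prepupae, had 47.8 and 53.2 in Dop1R2 RNAi pupae, against 21.3 and 28.8 in control pupae (log2 fold change 1.02, adjusted p = 0.293).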

How the data were processed

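Early pupae of both genotypes were measured on 1-colour Affymetrix DrosGenome1 arrays. The deposited file gives for each probe set a linear signal intensity, which the authors computed with Microarray Suite (MAS5, of unstated version) and scaled to a common trimmed mean. All 4 columns were used, with groups and replicate numbers from the sample labels. The arrays' median signals were 43.4 to 45.0, and their log2 signals correlated across probe sets with r from 0.905 to 0.945. The study tested genes called marginal or present with a t-test. Detection calls were not used here, so a filter on signal took their place.

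Of 14010 probe sets, 44 control probe sets were left out. The intensities were log2-transformed without an offset. A probe set was tested if it reached the 40th percentile on at least 2 of 4 arrays (8749 of 13966). The test was limma (3.58.1, R 4.3.3; lmFit, then eBayes with a trend; 2 residual and 4.95 prior degrees of freedom), with Benjamini-Hochberg adjustment over all of them and a threshold of 0.05. Standard errors are those of limma. The fit was tested on simulated data. Summaries used Python 3.11.15, pandas 2.3.3, numpy 2.4.6 and matplotlib 3.10.9. The number of arrays limits the precision.

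Of the remaining probe sets, 12443 are annotated with 1 gene name, 327 with several and 1196 with none. Probe sets with several names were not used, 3 of them with a Cpr gene. Current names, chromosome arms and neighbouring genes came from the reference annotation of assembly Release 6 plus ISO1 MT. Cpr66D and Cpr73D have more than 1 probe set, with the same direction in each.

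The Cpr genes and the other lists were chosen with earlier results of these data known. Per-array values are given for Cpr genes that passed, that differed by at least 1 on the log2 scale with groups that do not overlap, the 5 brightest, and in clusters of 3 or more genes the one with the largest change and the brightest, and for the genes the study names from these arrays. Other lists (Rebers and Riddiford proteins of other names, larval cuticle, prepupal and pupal cuticle, other cuticle families, chitin, tanning, ecdysone-controlled regulators, salivary glue, fat body, muscle, neurons) give up to 4 genes each. Other Cpr genes named, among them Cpr5C, Cpr12A, Cpr66D, Cpr78E, Cpr100A and the 9 lower without Dop1R2 RNAi replicate 1, were chosen after their values were seen.

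Alternatives concerned the filter (none, or the 60th percentile), dim signals (raised to the 20th percentile, or 32 added to all), scaling (quantile normalization or median centring), the model (without a trend, with the replicate number as a block, or the methods' t-test), a gene's value (mean of its probe sets) and the arrays (each left out).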

Additional observations from a re-analysis of the deposited data

How the results depend on the processing

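Cpr65Ec and Cpr72Eb passed in limma under every alternative that kept both control arrays, and Cpr49Ac in all of these except the fit without a trend (adjusted p = 0.0692). The methods' t-test called 0 Cpr genes after Benjamini-Hochberg adjustment (4 higher, against 5.34% of all tested probe sets, and 1 lower, against 3.69%, at an unadjusted p under 0.05), where the count over the other cuticle lists was also 0. With 1 array left out, Cpr genes higher numbered 0 to 6 (0 without either control) and lower 0 to 9, and genes higher in the other cuticle lists 0 to 11, against 4 with all arrays. That count was 1 without the filter and 1 without a trend. Cpr72Ea turned to 0.63 without Dop1R2 RNAi replicate 1, within a range of -0.94 to 0.63. With the replicate number as a block, 3 Cpr genes were higher and 0 lower, the same 3 genes, so the block changed no call among the Cpr genes. Same-numbered arrays had replicate differences that correlated at 0.151 over all tested probe sets, with 2 pairs. The median over the Cpr genes was negative under all alternatives except without Dop1R2 RNAi replicate 2 (0.12). Signals under the 20th percentile have no order, which limits Cpr47Eb and the 14 dim genes.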
